A study of Mus musculus with 8 samples.

Results

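Mouse skin rests on a layer of fat cells, the dermal white adipose tissue. This account covers 10 of its genes, chosen by name as 4 adipokines (Adipoq, Lep, Retn and Cfd), 3 proteins of the lipid droplet surface (Plin1, Plin4 and Cidec) and 3 lipases (Lpl, Lipe and Pnpla2). Each matched 1 row among the 22564 genes of the deposited table. White fat cells store triglyceride in a large droplet coated by perilipins, take up fatty acids that lipoprotein lipase frees from circulating lipoproteins, and release fatty acids again when adipose triglyceride lipase and hormone-sensitive lipase act in turn on the droplet. They also secrete hormones and other proteins, the adipokines, into the blood. Dermal fat expands and shrinks with the hair cycle, and its cells can also respond to infection and wounding.

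The skin came from male C57 mice, strain label C57Bl/6, aged 4 weeks. In 4 libraries (irradiated) it was taken from the treated area 24 h after a single dose of 35 Gy from a 6-MeV electron beam. In the other 4 (nonirradiated) it was taken from areas outside the beam. The groups thus differ in skin area as well as in irradiation, and the effects of these cannot be told apart. Total RNA was depleted of ribosomal RNA and sequenced from stranded libraries. The labels do not say that each library is a separate mouse, so p-values measure the spread between libraries, part of which may be technical.

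Levels are in FPKM, fragments per kilobase of transcript, adjusted for the size of the library, which can be compared between genes because they are per length. Changes are log2 differences of FPKM + 1, irradiated minus nonirradiated, from limma, and a gene passed when its p-value, adjusted over the 13324 genes tested, was under 0.05. Reads were recovered from the deposited estimated counts and totalled between 5036276 and 6626650 per library. Genes with few reads piled up at a read count typical of each library, the commonest low read count, which was 78.3, 34.7, 19.97 and 73.3 in irradiated replicates 1 to 4 and 15.6, 4.16, 4.67 and 14.9 in nonirradiated replicates 1 to 4. Units are reads over this count, rounded. They are taken as a proxy of distinct fragments, which is an assumption, and there were fewer of them in each irradiated library, between 75710 and 331994, than in any nonirradiated library, between 384705 and 1338793. A value above 0 was listed for between 9311 and 12921 genes in irradiated and between 12566 and 14610 in nonirradiated libraries.

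The promoters of 3 adipokine genes are printed because these genes had the higher mean level in irradiated skin. They are Cfd, the member whose groups did not overlap, with Adipoq and Lep. Each run covers bases 150 to 2 before the RefSeq start on the plus strand of GRCm38.p6, read 5′ to 3′, at chr10:79890703-79890851 for Cfd, chr16:23146386-23146534 for Adipoq and chr6:29060071-29060219 for Lep. Capitals mark matches to a C/EBP motif or a CCAAT box on either strand.
Cfd: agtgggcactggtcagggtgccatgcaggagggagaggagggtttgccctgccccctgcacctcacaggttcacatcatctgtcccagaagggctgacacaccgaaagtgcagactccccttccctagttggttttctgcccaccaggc
Adipoq: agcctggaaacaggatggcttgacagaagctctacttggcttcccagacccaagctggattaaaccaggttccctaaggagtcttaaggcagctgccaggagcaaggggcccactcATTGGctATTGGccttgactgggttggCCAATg
Lep: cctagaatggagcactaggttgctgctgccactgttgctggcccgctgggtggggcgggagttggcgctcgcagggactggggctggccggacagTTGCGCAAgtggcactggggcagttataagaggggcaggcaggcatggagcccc

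RefSeq promoters were found for 9 of the 10 members, Lpl being the other. Both strands of the 250 bases before each start were searched for 5 motifs that were not taken from the expression values. The C/EBP motif TTGCNNAA, named for a family of factors that drive fat cell formation, occurred in 9.56% of the 32851 RefSeq promoters. Among the members it was found in Lep, where the match TTGCGCAA is its own reverse complement, in Plin1 at 2 places and before the second start of Cidec. The CCAAT box, CCAAT, occurred in 33.8% of promoters, at 3 places in Adipoq and at 1 place in Plin4. The E-box CACGTG, in 6.02% of promoters, was found in Lipe. TATAAA, in 12.4% of promoters, and a form of the PPAR response element, AGGTCA repeated after 1 spacer base of any kind, held by 0.0335%, were found in no member promoter. Matches of these letters describe the windows and nothing more, and no binding was measured here.

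No member passed the adjusted threshold in limma (0 of 10), against 0.248% of all genes tested. This share was 33 genes, 16 of them higher in irradiated skin and 17 lower. Unadjusted p-values in limma were under 0.05 for 1 of 10 members, Cfd, which was higher. By that rule 12.9% of all genes passed in either direction, and 5.68% were higher. By edgeR on recovered reads 0 of 10 members passed the adjusted threshold, against 1.08% of genes, and 2 members, Cfd and Lpl, had an unadjusted p under 0.05, against 10.3% of genes. DESeq2 on recovered reads called Cfd (4.98% of genes called), and edgeR on units called Cfd among the 7 members it could test (9.01% of genes called). The fitted changes of 5 members lay above 0 and those of 5 below it. Their median was 0.022, and the median of all genes tested was -0.11. In whole skin, a difference in the number of fat cells and one in the RNA per fat cell cannot be told apart.

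**Figure D1:**
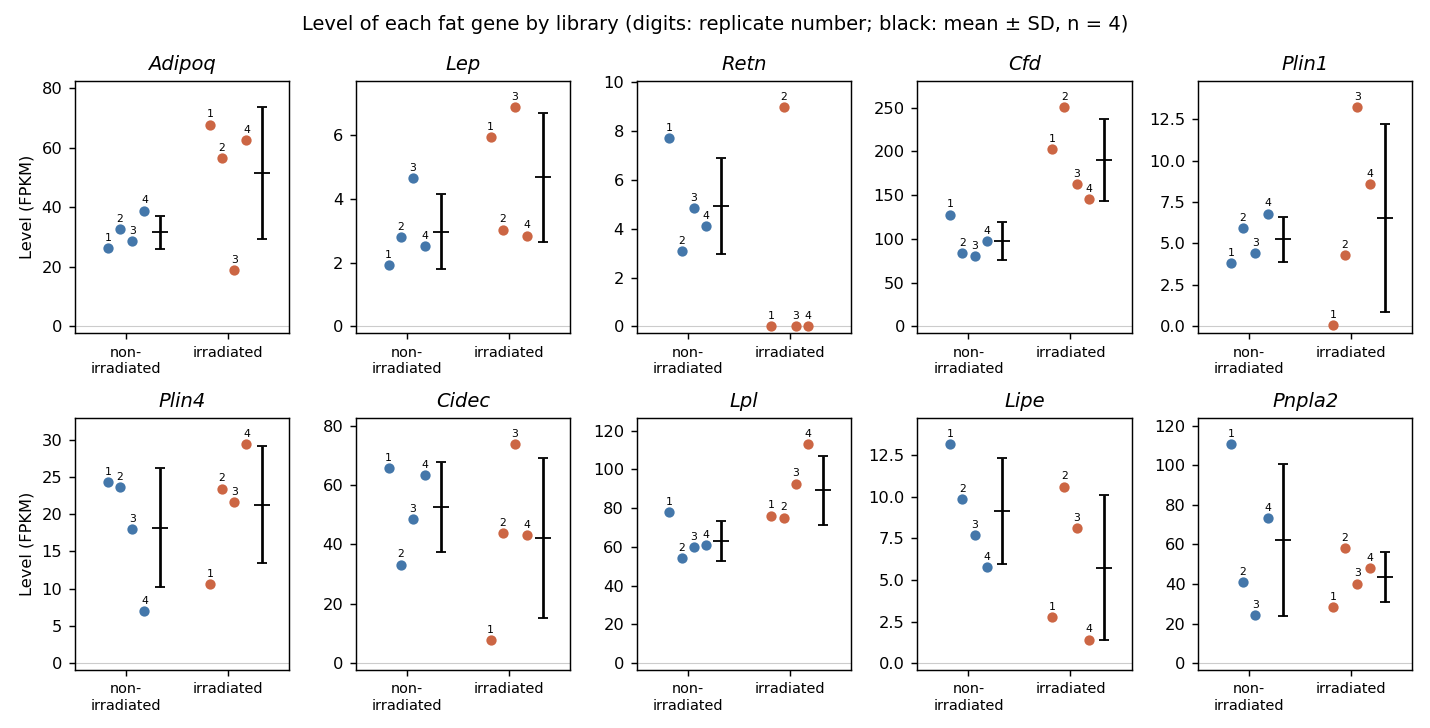
Level of each member in every library, in FPKM on an axis that differs between panels. Points are libraries with their replicate number, black bars are the mean and SD of 4 libraries, and no bar is drawn for irradiated Retn, which was listed at 0 in 3 libraries. Cfd is the panel in which all 4 irradiated points lie above all 4 nonirradiated points.

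In nonirradiated skin the members spanned from Cfd, at 97.5 ± 21.6 FPKM (SD, n = 4), down to Lep, at 2.97 ± 1.17 FPKM. Cfd was the member of highest level in each of the 8 libraries. Its lowest nonirradiated value lay above every value of Lpl, the next in order, at 63.2 ± 10.2 FPKM. Lpl, Pnpla2 (62.2 ± 38.2) and Cidec (52.6 ± 15.1) overlapped one another, and Cidec overlapped Adipoq (31.7 ± 5.50). The lowest nonirradiated value of Adipoq lay above the highest of Plin4 (18.2 ± 8.01). Below Plin4, each neighbour in the order overlapped the next, from Lipe (9.14 ± 3.18) through Plin1 (5.24 ± 1.36) and Retn (4.94 ± 1.98) to Lep.

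In irradiated skin Cfd and Lpl again led, at 190 ± 46.7 and 89.3 ± 17.8 FPKM (SD, n = 4), with no overlap between them or between Lpl and Adipoq, at 51.5 ± 22.1 FPKM. From Adipoq downward every neighbour overlapped the next, in the order Pnpla2, Cidec, Plin4, Plin1, Lipe, Lep and Retn. Summed over the 10 members, the level ranged from 402 to 534 FPKM in irradiated and from 281 to 459 FPKM in nonirradiated libraries, with nonirradiated replicate 1 at the upper end of its group. That library held the highest nonirradiated level of 7 of the 10 members and the lowest of the other 3 (Adipoq, Lep and Plin1). Irradiated replicate 1 alone held the lowest irradiated level of 4 (Plin1, Plin4, Cidec and Pnpla2).

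Cfd encodes complement factor D, also called adipsin, a serine protease of the alternative complement pathway that mouse fat cells secrete. The gene (ENSMUSG00000061780) lies on chromosome 10, from 79890853 to 79892655 in GRCm38, the assembly of mm10. Its level was 203, 250.5, 163 and 146 FPKM in irradiated replicates 1 to 4 and 128, 83.5, 80.5 and 98.0 FPKM in nonirradiated replicates 1 to 4. Every irradiated library was above every nonirradiated one; 3.99% of the genes tested had that order and 4.48% the opposite order.

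The limma change of Cfd was 0.95 (SE 0.25, 95% interval 0.40 to 1.498), with an unadjusted p of 0.00290 and an adjusted p of 0.141, rank 274 by p among the genes tested. On recovered reads, 1431, 1608, 1197 and 893 in irradiated and 763, 520, 614 and 636 in nonirradiated libraries, the groups also did not overlap. The share of all genes without overlap was taken on FPKM and not on reads. The edgeR change on reads was 0.88 with an adjusted p of 0.0722. DESeq2 gave 0.92 with an adjusted p of 0.00207, and edgeR on units 0.94 with an adjusted p of 0.00541. Cfd therefore lay between 0.88 and 0.95 in these fits and on different sides of the threshold. With other scalings of FPKM its limma change was smaller. It was 0.82 with median ratio scaling (limma adjusted p = 0.120) and 0.64 with quantile normalization (limma adjusted p = 0.254). Behind these values stood 12 to 60 units in irradiated and 43 to 131 units in nonirradiated libraries.

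The summed levels of several marker lists of other cell types were also higher on average in irradiated skin. The 16 skeletal muscle markers, none at 0 in any library, summed to between 5064 and 7859 FPKM in irradiated and between 1648 and 6271 FPKM in nonirradiated libraries, where nonirradiated replicate 1 was highest. That library also had the highest nonirradiated Cfd. With an index of muscle markers as a covariate the change of Cfd was 0.63 (SE 0.31, adjusted p = 0.684 in limma). Without nonirradiated replicate 1 and without the covariate it was 1.09 (limma adjusted p = 0.118). The index ran from 7.53 to 8.18 in irradiated libraries. Nonirradiated replicate 1, at 8.13, was the only nonirradiated library in that range. The covariate fit thus rests on that library and cannot separate muscle from group. The 15 sebaceous gland markers summed to between 661 and 782 against between 268 and 525 FPKM, with at most 3 of them at 0 in any library of either group. The 11 macrophage markers summed to between 153 and 239 against between 108 and 135 FPKM, with up to 5 at 0 in an irradiated and up to 1 in a nonirradiated library; Lgals3 made up 109 ± 11.4 of this sum in irradiated and 60.8 ± 2.47 in nonirradiated skin (SD, n = 4), and 7 of the 11 were fitted above 0 in limma. The 8 basal keratinocyte markers, none at 0 in any library, summed to between 2286 and 4140 against between 1801 and 2399 FPKM, with some overlap. The part of the sebaceous gland, macrophage and basal keratinocyte lists in the Cfd result was not tested, and that of muscle cannot be told from these fits.

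Fabp4, the abundant fatty acid binding protein of fat cells, and Adipoq give within-library scales for Cfd. Fabp4 was at 1404 ± 374 FPKM in irradiated and 1163 ± 95.5 FPKM in nonirradiated skin (SD, n = 4). The ratio of Cfd to Fabp4 was 0.137 ± 0.0186 in irradiated libraries, the lowest at 0.120, and 0.0836 ± 0.0157 in nonirradiated libraries, the highest at 0.106. These groups did not overlap, but those of the Cfd level alone did not overlap either. The share of all genes whose ratio to Fabp4 separates the groups was not taken. The ratio of Cfd to Adipoq, 2.32 to 8.54 in irradiated against 2.52 to 4.84 in nonirradiated libraries, did overlap. The ratio to Fabp4 for Adipoq, 0.0160 to 0.0543 against 0.0218 to 0.0319, and for Lpl, 0.0382 to 0.0931 against 0.0490 to 0.0644, did overlap. These ratios were chosen after the levels had been seen and were not tested.

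Adipoq encodes adiponectin, an insulin-sensitizing hormone made almost only by fat cells. It lies on chromosome 16, from 23146536 to 23158028. Its level was 67.8, 56.5, 19.0 and 62.7 FPKM in irradiated and 26.4, 32.7, 28.7 and 38.9 FPKM in nonirradiated replicates 1 to 4. In 3 irradiated libraries it was above every nonirradiated value and in irradiated replicate 3 below every one, so the groups overlapped. Its limma change was 0.55 (SE 0.39, interval -0.31 to 1.41, adjusted p = 0.594). Without irradiated replicate 3 it was 0.97, the highest of the values with a library left out, which went down to 0.37.

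The libraries of Adipoq stood in another order in reads than in FPKM. Its recovered reads were 377, 535, 208 and 567 in irradiated and 198, 303, 324 and 374 in nonirradiated libraries. Irradiated replicate 1, the highest in FPKM, held 377 reads against 374 in nonirradiated replicate 4. The FPKM listed per 1000 reads ran from 88.5 in nonirradiated replicate 3 to 180 in irradiated replicate 1, a 2.03-fold range. On reads the edgeR change was 0.36 (adjusted p = 0.931). In units Adipoq rested on 5, 15, 10 and 8 in irradiated replicates 1 to 4 and on 13 to 73 in nonirradiated libraries.

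Lep encodes leptin, the satiety hormone that rises with fat mass, and lies on chromosome 6, from 29060220 to 29073877. It was listed at 5.93, 3.04, 6.87 and 2.85 FPKM in irradiated and 1.93, 2.80, 4.65 and 2.52 FPKM in nonirradiated replicates. Irradiated replicates 1 and 3 were above every nonirradiated library and the others lay within their range. The limma change was 0.48 (SE 0.51, interval -0.64 to 1.61, adjusted p = 0.731). In reads, Lep had 168, 78, 206 and 70 against 47, 71, 68 and 66, so irradiated replicate 4 alone fell below the highest nonirradiated library. The edgeR change on reads was 0.85 (adjusted p = 0.887). In units Lep rested on 15 in all 4 irradiated libraries together and 39 in the nonirradiated ones.

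Retn encodes resistin, a cysteine-rich protein that fat cells secrete in mice. It lies on chromosome 8, from 3655770 to 3660110. It was listed at 0, 8.98, 0 and 0 FPKM in irradiated replicates 1 to 4 and at 7.70, 3.09, 4.84 and 4.11 FPKM in nonirradiated ones. The highest and the 3 lowest values were thus all irradiated. Of the genes tested, 10.1% were listed at 0 in at least 3 irradiated libraries.

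A count of 0 allows up to 3 units, which was 235 reads in irradiated replicate 1, 59.9 in replicate 3 and 219.8 in replicate 4. The nonirradiated libraries held 18 to 43 reads of Retn, below all of these limits, so a lower level of Retn was not detectable at this depth. Limma gave a change of -1.68 (SE 0.79, interval -3.42 to 0.054, adjusted p = 0.403), and its size depends on the added 1 FPKM because of the values at 0. Without irradiated replicate 2 it was -2.51 (adjusted p = 0.0927).

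**Figure D2:**
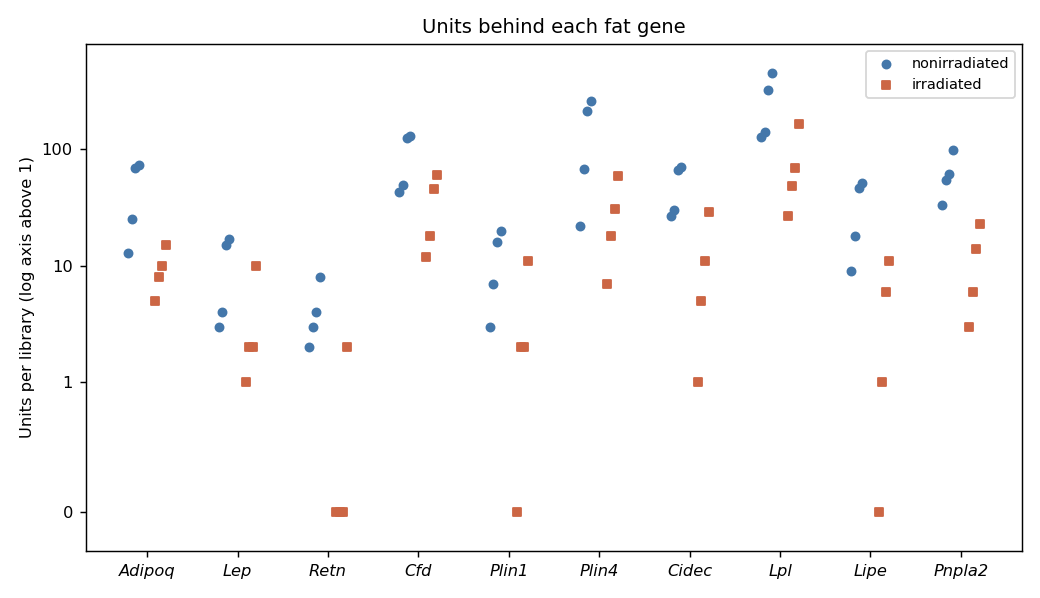
Units (rounded ratio of reads to the commonest low read count of the library) behind each member, on an axis that is logarithmic above 1 and extends to 0, with 1 point per library. Values reach 0 in irradiated libraries for Retn, Plin1 and Lipe, and no nonirradiated library is at 0.

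Plin1 encodes perilipin 1, the main coat protein of the fat cell droplet, which restrains lipolysis until it is phosphorylated. It lies on the minus strand of chromosome 7, from 79720218 to 79732903. It was listed at 0.0642, 4.31, 13.2 and 8.57 FPKM in irradiated and 3.83, 5.92, 4.42 and 6.80 FPKM in nonirradiated replicates. The irradiated libraries held both the lowest value, which rested on 1 read, and the 2 highest. The limma change was -0.22 (SE 0.76, interval -1.90 to 1.46, adjusted p = 0.934), with an interval that reaches past 1 on both sides. It was 0.55 without irradiated replicate 1 and 0.19 by edgeR on reads, so the sign for Plin1 depended on the setting.

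Plin4 encodes perilipin 4, a coat protein of nascent droplets that skeletal muscle also makes. It lies on the minus strand of chromosome 17, from 56100591 to 56109803, and overlaps Hdgfl2 on the opposite strand by 17 bases. Its level was 10.6, 23.4, 21.6 and 29.4 FPKM in irradiated and 24.3, 23.6, 17.99 and 6.96 FPKM in nonirradiated replicates. The lowest value was nonirradiated replicate 4 and the highest irradiated replicate 4, with the rest intermixed. The change was 0.26 (SE 0.45, interval -0.73 to 1.26, adjusted p = 0.845 in limma), and -0.12 without nonirradiated replicate 4.

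Cidec, known as Fsp27 in mice, promotes fusion of droplets into the large single droplet of white fat cells. It lies on the minus strand of chromosome 6, from 113424634 to 113435760. It was listed at 7.77, 43.8, 73.8 and 43.2 FPKM in irradiated and 65.8, 33.1, 48.4 and 63.2 FPKM in nonirradiated replicates. Irradiated replicate 1 stood lowest, on 1 unit, and irradiated replicate 3 stood highest. The fitted change was -0.62 in limma (SE 0.57, interval -1.89 to 0.65, adjusted p = 0.691). Without irradiated replicate 1 it was 0.029 and by edgeR on units 0.10.

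Lpl encodes lipoprotein lipase, which is made by fat and muscle cells and works at the capillary wall. It lies on chromosome 8, from 68880491 to 68907448. Its level was 76.2, 75.1, 92.7 and 113 FPKM in irradiated and 77.9, 54.2, 59.7 and 60.8 FPKM in nonirradiated replicates. All irradiated libraries were above 3 of the nonirradiated ones, and nonirradiated replicate 1, which was also high in muscle markers, lay above irradiated replicates 1 and 2. The limma change was 0.49 (SE 0.23, interval -0.029 to 0.999, unadjusted p = 0.0617, adjusted p = 0.415).

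On reads Lpl had 2136, 2399, 3286 and 3545 against 2211, 1355, 2100 and 1886, with edgeR giving 0.47 (adjusted p = 0.422). On units, of which it had the most of any member, 309 in irradiated and 1042 in nonirradiated libraries, edgeR gave 0.52 (adjusted p = 0.0742). With a library left out the limma change ran from 0.37 to 0.59 and with the muscle index as covariate it was 0.30 (adjusted p = 0.838). Quantile normalization gave 0.16.

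Pnpla2 encodes adipose triglyceride lipase, which starts the breakdown of stored triglyceride in fat and muscle. It lies on chromosome 7, from 141455198 to 141460743. It was listed at 28.3, 58.2, 40.2 and 48.0 FPKM in irradiated and 111, 40.9, 24.1 and 73.3 FPKM in nonirradiated replicates. The nonirradiated group held both the highest and the lowest value. In limma the change was -0.33 (SE 0.44, interval -1.30 to 0.65, adjusted p = 0.794), and 0.017 without nonirradiated replicate 1.

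Pnpla2 had the widest range of FPKM per read among the members, from 58.4 FPKM per 1000 reads in irradiated replicate 1 to 220 in irradiated replicate 4, a 3.77-fold difference. Irradiated replicate 1 held 484 reads and irradiated replicate 4 218 reads, yet replicate 4 was listed at the higher FPKM. Among the 10 members this ratio of highest to lowest library was over 2-fold also for Cidec (2.18), Lep (2.05) and Adipoq (2.03), and was between 1.27 and 1.45 for the other 6. Among all 6744 genes with at least 20 reads in every library, 57.7% had an SD of log2 FPKM per read above 0.1.

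**Figure D3:**
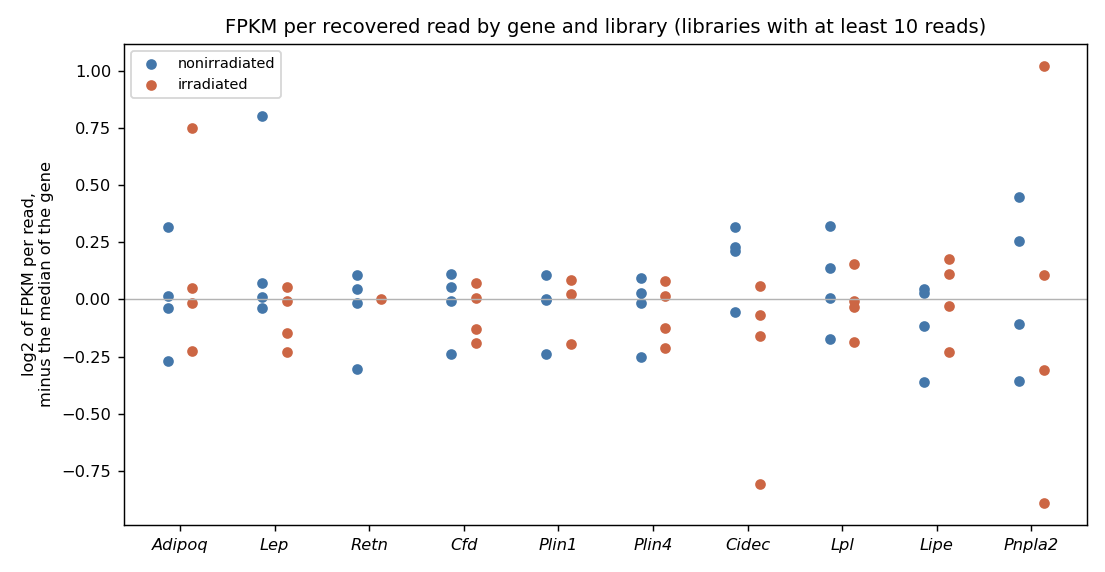
FPKM per recovered read for each member and library on the log2 scale, relative to the median of that gene, in libraries with at least 10 reads of the gene. The points of Pnpla2 spread over a 3.77-fold range, set by irradiated replicates 1 and 4, and those of Cfd stay close together.

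Lipe encodes hormone-sensitive lipase, which mainly cleaves diglyceride after adipose triglyceride lipase has acted. It lies on the minus strand of chromosome 7, from 25379527 to 25398710, and the whole of it is overlapped on the opposite strand by 4732471J01Rik, which was listed at 0 in all 8 libraries. Its level was 2.76, 10.6, 8.11 and 1.41 FPKM in irradiated and 13.2, 9.88, 7.72 and 5.76 FPKM in nonirradiated replicates. Irradiated replicates 1 and 4 were below every nonirradiated library, and the other two fell inside the nonirradiated range. Limma gave -0.81 (SE 0.59, interval -2.11 to 0.48, adjusted p = 0.603). The 2 low libraries held 1 and 0 units of Lipe and had the highest commonest low read counts. Without them the change was 0.075, in a setting added after the data were seen. Leaving out the 2 lowest irradiated values raises the change by construction. This value therefore cannot show a part of depth, which was not tested.

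**Figure D4:**
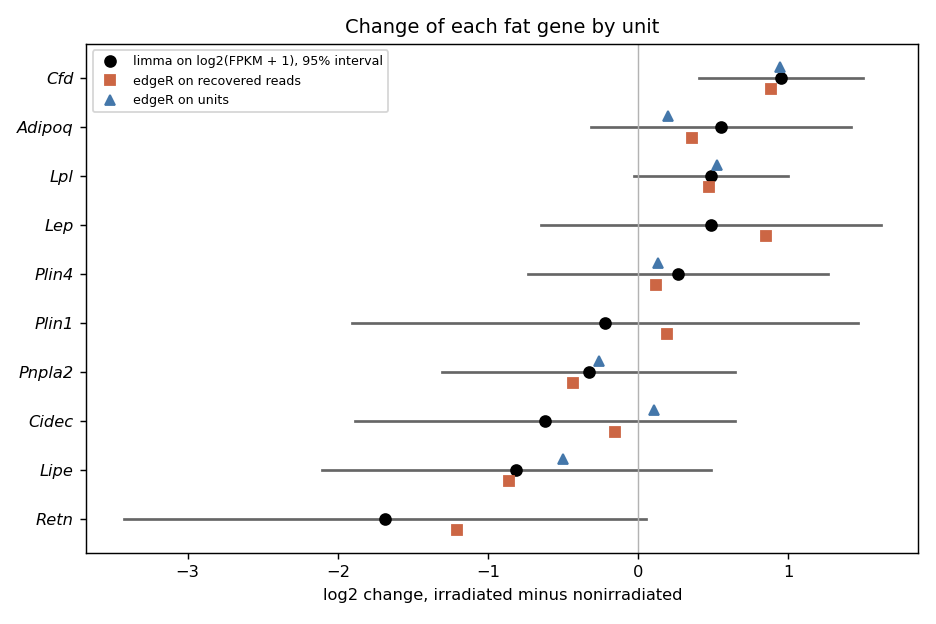
Change of each member on the log2 scale, irradiated minus nonirradiated, from limma on log2(FPKM + 1) with its 95% interval (black), edgeR on recovered reads (squares) and edgeR on units (triangles, 7 members). The interval of Cfd alone excludes 0, and Plin1 and Cidec lie on different sides of 0 in different units.

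The members did not vary as a block across the 8 libraries. Of their 45 pairs, 26 had a Pearson r above 0 on log2(FPKM + 1), 4 had one above 0.5, and the median was 0.068. The droplet proteins Plin1 and Cidec were the most alike (r = 0.87), followed by Retn and Lipe (0.75), Cfd and Lpl (0.59) and Cidec and Pnpla2 (0.52). Lep and Pnpla2 ran most opposite (-0.77), followed by Adipoq and Cidec (-0.66) and Adipoq and Lipe (-0.65). These correlations describe 8 libraries that share irradiation, depth and tissue make-up, and low counts add noise to them.

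**Figure D5:**
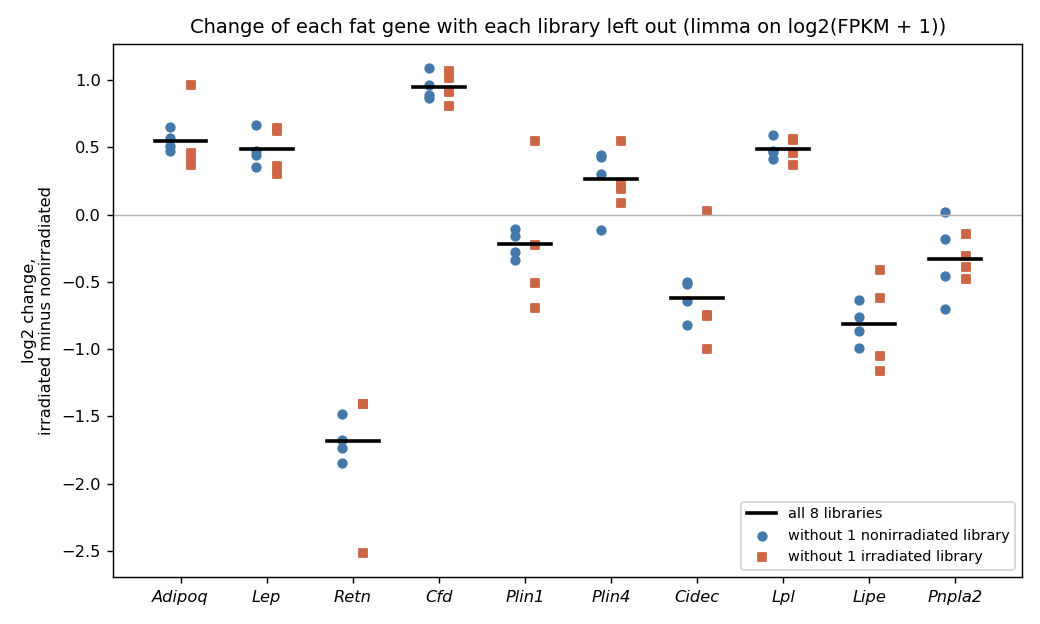
Change of each member on the log2 scale with all 8 libraries (bars) and with 1 library left out at a time (circles, a nonirradiated library; squares, an irradiated one), from limma on log2(FPKM + 1). Cfd stays between 0.81 and 1.09 and Lpl between 0.37 and 0.59, and points of Plin1, Plin4, Cidec and Pnpla2 fall on both sides of 0.

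Across the 8 libraries, the mean standardized level of the 8 members with a mean of at least 5 FPKM was followed most closely, among 8314 genes at that level, by Siah1a (r = 0.96), Plekhb2 (0.96), Pnrc1 (0.96), Aebp1 (0.95), Pcmtd1 (0.95) and Atg4a (0.95). That mean was lowest in irradiated replicate 1, at -0.67, and highest in irradiated replicate 2, at 0.52. The highest of 8314 correlations over 8 points carries no test. Plekhb2, for example, was at 41.1 ± 29.1 FPKM in irradiated and 20.7 ± 19.1 FPKM in nonirradiated skin (SD, n = 4).

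As adipocyte markers, 6 genes were used (Fabp4, Slc2a4, Cd36, Pparg, Cebpa and Aoc3), none of which was at 0 in any library. They summed to between 1313 and 2215 FPKM in irradiated and between 1128 and 1384 FPKM in nonirradiated libraries, and most of this was Fabp4. The other 5 summed to between 125 and 250.4 FPKM in irradiated and between 98.8 and 174 FPKM in nonirradiated libraries. The sums hide different directions. Limma changes were -1.06 for Cebpa, 1.19 for Slc2a4, 0.53 for Cd36 and for Pparg, 0.24 for Fabp4 and 0.10 for Aoc3. Pparg is also on the sebaceous list, and the part of other cell types, muscle among them, in these sums was not tested. Among 16 fat cell identity genes, 15 were tested in limma and 0 were called by it in either direction, with 11 fitted above 0 and a median of 0.45. By edgeR on units, Car3, a carbonic anhydrase gene (log2 change 0.53, adjusted p = 0.0237), and Orm1 (1.43, adjusted p = 0.0392) were called higher among 8 tested, and DESeq2 called these and Sncg. Sncg, which encodes a synuclein made in fat cells and neurons, averaged 50.4 ± 22.8 against 10.2 ± 5.001 FPKM (SD, n = 4; limma log2 change 2.18, adjusted p = 0.0867). Orm1, an acute phase glycoprotein, was at 59.0 ± 19.3 against 19.7 ± 10.2 FPKM (limma adjusted p = 0.128). The brown fat gene Ucp1 was listed at 0 in all 8 libraries, and 0 of 7 brown and beige fat markers tested were called by limma, the smallest p being that of Elovl3 (limma adjusted p = 0.399), which is also on the sebaceous list.

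Of 16 adipogenic transcription factors tested, 0 were called by limma, with 8 fitted above and 8 below 0. DESeq2 and edgeR also called 0 of those they tested. Srebf1, which drives lipid synthesis genes, was at 37.7 ± 10.2 against 12.5 ± 5.66 FPKM (SD, n = 4; limma adjusted p = 0.0915), whereas edgeR on its reads gave 0.47 with an adjusted p of 0.909. Mlxipl, the carbohydrate response factor, had a limma adjusted p of 0.506. Of 10 adipocyte precursor genes tested 0 were called by limma, in which Ly6a and Cd34 had the smallest p (limma adjusted p = 0.490 and 0.511). Dpp4, which encodes a surface peptidase, was called lower by DESeq2 and by edgeR on units (log2 change -1.17, adjusted p = 0.0144), whereas its limma change was -0.071.

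The regulators around the lipases were described in the same way. Of 13 lipolysis regulators tested 0 were called in limma, with 7 fitted above 0 and a median of 0.25. Mgll, which encodes the lipase of the last step of lipolysis, was at 47.9 ± 12.7 against 16.6 ± 6.35 FPKM (SD, n = 4), a change of 1.51 with a limma adjusted p of 0.0966 and, by edgeR on reads, of 1.34 with an adjusted p of 0.0429. Faah, an amidase of lipid mediators, had a limma adjusted p of 0.417. Of 7 lipoprotein lipase partners tested 0 were called by limma, and DESeq2 and edgeR also called 0 of those they tested. Lmf1, needed for lipase folding, was at 0.240, 0.0401, 3.89 and 0 FPKM in irradiated replicates 1 to 4 and had a limma adjusted p of 0.296, and the lipoprotein receptor gene Vldlr was at 12.7 ± 3.21 against 6.12 ± 1.97 FPKM (limma adjusted p = 0.356).

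Of 10 other droplet coat and biogenesis genes tested 0 were called by limma, and DESeq2 and edgeR also called 0 of those they tested, with 5 fitted on each side of 0. Cav1, the caveolar coat gene, was at 136 ± 41.5 against 83.6 ± 10.5 FPKM (SD, n = 4; limma log2 change 0.65, adjusted p = 0.325), whereas edgeR on its reads gave 0.18 with an adjusted p of 0.928. Fitm1 was listed at 0 in all 4 irradiated libraries and in 1 nonirradiated library. Of 9 triglyceride synthesis genes 0 were called by limma, with 6 fitted above 0 and a median of 0.58; the smallest p-values were those of Gpd1 (limma adjusted p = 0.241) and the acyltransferase gene Agpat3 (0.300). Acsl1, which activates long-chain fatty acids, was called higher by edgeR on units (log2 change 0.70, adjusted p = 0.0112) and by DESeq2, which also called Gpd1. Gpd1 averaged 6.69 ± 6.53 FPKM in irradiated and 0.000134 FPKM in nonirradiated skin (SD, n = 4). It rested on 5 units in irradiated and 0 in nonirradiated libraries, and edgeR on reads with its filter did not test it.

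Of 6 adipokine receptor genes 0 were called by limma and 4 were fitted above 0. Cap1, reported as a resistin receptor in human monocytes, was at 162 ± 31.1 against 80.5 ± 18.3 FPKM (SD, n = 4; limma log2 change 1.01, adjusted p = 0.106), and edgeR on its reads gave 0.41 with an adjusted p of 0.419. Adipor2, an adiponectin receptor gene, was at 39.6 ± 14.9 against 19.4 ± 7.19 FPKM (limma adjusted p = 0.273) and was called higher by DESeq2 and by edgeR on units (log2 change 0.85, adjusted p = 0.0296). Of 12 genes tested from the list of other adipokines, which also holds the epidermal lipase Pnpla1, 0 were called by limma, and DESeq2 and edgeR also called 0 of those they tested. Those of smallest p were Nnat (limma adjusted p = 0.138), listed at 0 in 2 irradiated libraries, and Nampt (0.403).

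In the lists for other cell types 2 genes passed in limma. Far2, which makes wax alcohols in sebaceous glands, overlaps Ergic2 on the opposite strand. It was at 64.9 ± 8.38 FPKM in irradiated and 10.9 ± 3.80 FPKM in nonirradiated skin (SD, n = 4, limma log2 change 2.52, adjusted p = 0.00870). By edgeR on reads, Far2 and Scd1 of the sebaceous list (adjusted p = 0.00515 for Scd1) were called higher, as they were by DESeq2 and edgeR on units. Krt79 and Scd3 of that list were called higher by DESeq2 and by edgeR on units (adjusted p = 0.00514 and 0.00578). Myh1, a fast muscle myosin, was at 854 ± 185 FPKM in irradiated and 107 ± 104 FPKM in nonirradiated skin (limma log2 change 3.37, adjusted p = 0.0208). Of the 16 muscle markers, 15 were fitted above 0 and 1, the myosin gene Myh4, below it (limma log2 change -1.83, adjusted p = 0.0912). Myh4 was called lower by DESeq2, by edgeR on reads (adjusted p = 0.0499) and by edgeR on units (adjusted p = 0.0290). Myh1, Myh2 and Tnnt3 were called higher by the same fits. Among 11 macrophage, 8 endothelial, 8 basal keratinocyte and 8 dermal fibroblast markers 0 were called by limma, with Lgals3, Flt1, Krt15 and Col3a1 the genes of smallest p (limma adjusted p = 0.107, 0.537, 0.103 and 0.153). Of these, Lgals3, Krt15 and Col3a1 were called higher by DESeq2 and by edgeR on units (adjusted p = 0.0144, 0.00228 and 0.00366), as was the basal keratinocyte integrin gene Itga6 (0.0165), and DESeq2 also called the macrophage integrin gene Itgam.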

How the data were processed

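Bulk RNA-seq of irradiated and nonirradiated mouse skin was read from 1 deposited table of 22565 rows, of which 1 was empty. It holds the authors' FPKM and, per the file headers, an estimated count for each gene and library, both as deposited. The submitters' processing notes list mm10, HISAT2 2.0.4, cutadapt 1.9.3, Cuffdiff and Cufflinks without saying what each did; strand use in counting is not given in the sources used here.

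The main test was a robust limma fit (3.58.1, R 4.3.3) with an intensity trend to log2(FPKM + 1) of 13324 genes, those averaging 0.5 FPKM or more, with Benjamini-Hochberg adjustment at 0.05. The log2(FPKM + 1) scale understates changes of low genes. Because the estimated counts were scaled, each library's counts were divided by the step between them, after which 92.6% to 96.3% of values below 1900 lay within 0.02 of whole numbers, and the rounded reads were given to edgeR 4.0.16 (quasi-likelihood test) and DESeq2 1.42.0 as alternatives. The commonest low read count was sought between 3.5 and 300 reads. Floors cover counting error only; the 95% intervals of changes rest on the spread between libraries. The scripts were tested on simulated data, where DESeq2 and, by less, edgeR on reads made a larger share of false calls than the threshold allows. The bound they had to meet was widened after this was seen. For limma the simulated SDs were drawn from those up to the median of the observed ones. That simulation thus had less spread than these data and cannot show the share of false calls here.

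The members and the gene lists were chosen with earlier results of these data known. The text names all members, called genes of each list and otherwise its genes of smallest p (2 for fat lists, 1 for other cell types, numbers set after the fit was seen), and the 6 genes of most similar pattern; list genes named because another tool called them, with Fabp4, Ucp1 and Pnpla1, were chosen after their values were seen. Alternatives were another pseudocount, other filters, scalings and tools, a replicate block, a muscle index and leaving out each library; leaving out irradiated replicates 1 and 4 together was added after seeing the data. Coordinates and overlaps came from GENCODE M21 and promoters from RefSeq on GRCm38.p6. Of the 25 list genes named by the rule, Cap1, Elovl3, Far2, Nnat and Srebf1 overlap a gene on the opposite strand, so their values are uncertain. Pairs of libraries of 1 group correlated across genes at 0.78 to 0.89 (irradiated) and 0.91 to 0.96 (nonirradiated), and none were identical; genes are not independent replicates.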

Additional observations from a re-analysis of the deposited data

Results flagged for a closer look

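A sample far from the other 3 of its group was found in 5 of the 70 groups of values examined; chance flags about 1 in 20 groups. Retn was at 8.98 FPKM in irradiated replicate 2 and at 0 in the other 3 irradiated libraries. The adipokine list gene Nnat was at 5.12 FPKM in irradiated replicate 2, with the next library at 0.212. Lmf1, the lipase folding factor gene, was at 3.89 FPKM in irradiated replicate 3, with the next at 0.240. Flt1, an endothelial receptor gene, was at 35.4 FPKM in irradiated replicate 4, with the next at 11.5. Myh1, the muscle myosin gene, was at 263 FPKM in nonirradiated replicate 1, with the next nonirradiated library at 69.6.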

How the results depend on the processing

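Over the members, 182 of 197 values under other settings kept their direction and side of the threshold, 2 passed it (Cfd by DESeq2 on reads and by edgeR on units, so 1 member was called in each) and 13 changed sign. Plin1 became 0.25 with quantile normalization, 0.19 and 0.18 by edgeR on reads with and without a filter, 0.23 by DESeq2, 0.37 with the muscle index as covariate, 0.55 without irradiated replicate 1 and 0.50 without irradiated replicates 1 and 4. Plin4 became -0.12 without nonirradiated replicate 4. Cidec became 0.10 by edgeR on units, 0.029 without irradiated replicate 1 and 0.16 without irradiated replicates 1 and 4. Lipe became 0.075 without irradiated replicates 1 and 4, and Pnpla2 0.017 without nonirradiated replicate 1. With 1 library left out, the lowest and highest values were -0.70 and 0.55 for Plin1, -0.12 and 0.55 for Plin4, -1.002 and 0.029 for Cidec, and -0.70 and 0.017 for Pnpla2. The cause of these changes was not tested. Without 1 library the change of Cfd ran from 0.81 to 1.09 with a limma adjusted p from 0.118 to 0.378. Of all genes, 33 were called by limma, 133 and 152 by edgeR on reads with and without a filter, 707 by DESeq2, 527 by edgeR on units, 16 with the replicate block, 0 with the muscle index (1024 at an unadjusted p under 0.05), 4 to 76 without 1 library and 9 without irradiated replicates 1 and 4. Of the genes on the other lists, limma called 2 (Far2 and Myh1), 1 with no filter, 7 and 5 by edgeR on reads with and without a filter, 24 by DESeq2, 19 by edgeR on units, 0 with the muscle index, 0 to 11 without 1 library and 0 without irradiated replicates 1 and 4. The labels do not say whether equal replicate numbers mark the same mouse; deviations of same-numbered libraries correlated at 0.020, -0.013, 0.012 and 0.090, so they were not treated as pairs, and the replicate block changed no member's call. The median of all genes was -0.11 in the fit reported, -0.21 with median ratio scaling and -0.011 with quantile normalization, and that of the members 0.022, -0.081 and 0.11. Depth limits Lep, Retn, Plin1 and Lipe most, with 15, 2, 15 and 18 units in all irradiated libraries together.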
